A study of Mus musculus with 96 samples.

Results

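Cohesin is the ring-shaped protein complex that holds sister chromatids together from DNA replication until anaphase, and the RNA of 10 of its genes was followed in mouse embryonic fibroblasts that re-entered the cell cycle. The genes were taken by symbol from a table of 15895 genes, and all 10 were found. They are the ring and its peripheral subunits (Smc1a, Smc3, Rad21, Stag1 and Stag2), the regulators bound to the ring (Pds5a and Pds5b), the loader (Nipbl), the acetyltransferase that establishes cohesion (Esco2) and the protease that ends it (Espl1, which encodes separase). The rule that picked them used gene symbols and no values, but the list was chosen with earlier results of these data known. The cells were primary fibroblasts of CF-1 mouse embryos at embryonic day 13, kept for 36 h in 0.5% fetal calf serum and then given 20% serum at 0 h. The labels give the same strain and treatment for all. Groups differed in the time after serum and in the time course, Cycle 1 from -1 h to 38 h and Cycle 2 from -1 h to 27 h. Each hour of a Cycle was 1 library, and 95 libraries were used, 63 of Cycle 1 and 32 of Cycle 2. The libraries of a course were successive samples, so the replicates were the 2 Cycles at the hours that both had. Nothing in the labels says whether they came from separate embryos.

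In a dividing cell Nipbl and its partner Mau2 load the ring onto chromatin, where Smc1a, Smc3 and the kleisin Rad21 close around DNA and either Stag1 or Stag2 binds Rad21. Pds5 proteins sit on the same ring, helping Wapl to open it and also helping to keep it closed once Esco1 or Esco2 has acetylated Smc3 in S phase. At anaphase separase, until then held by securin (Pttg1), cuts Rad21 and the chromatids part; cohesin also folds interphase chromosomes into loops, so that its subunits are made in resting cells too.

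Values were the deposited normalised reads per gene, each library scaled to the same total, and the libraries held between 5067432 and 14500278 reads (median 10832557), as recovered from the smallest step between values. All 8 fibroblast markers were measured, with a summed level of 341216 to 503383 in the starved libraries and 150957 to 479956 after serum. The summed levels of 5 macrophage, 4 endothelial, 4 epithelial and 4 muscle markers were at most 4598, 272, 599 and 2542 in any library, and none of these markers had a median of 0. Their part in the results was not tested. The 24.5 h library of Cycle 1 stood furthest from its neighbours in time (a median difference of 0.411 on the log2 scale), and it had the steepest trend of its values with GC content. It was the lowest library of that Cycle for Stag1 (368), Stag2 (251) and Nipbl (241). It took no part in the tests, which used only hours of both Cycles. Leaving out 4 tested libraries that stood apart from their neighbours (24, 25 and 26 h of Cycle 1 and 5 h of Cycle 2) changed none of the members' calls. The trend of the values with transcript length, on the log2 scale for each doubling, had a mean of 0.163 in starved Cycle 1 and 0.151 in starved Cycle 2, against window means from -0.111 to 0.083 after serum. Single later libraries of Cycle 1 were as steep, up to 0.171 at 37 h.

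Per kb of exon, Rad21 was the most abundant of the 10 genes and Esco2 the least in both Cycles. The median over the libraries of a Cycle was 484 normalised reads per kb for Rad21 in Cycle 1 and 599.8 in Cycle 2, followed by Smc1a with 272 and 245, and it was 35.4 and 36.2 for Esco2. Rad21 was above Smc1a in all 63 libraries of Cycle 1 and all 32 of Cycle 2. Smc3 (182 and 174 per kb) and Pds5a (148 and 181) changed places between the Cycles, with Smc3 the higher in 48 of 63 libraries of Cycle 1 and Pds5a the higher in 18 of 32 of Cycle 2, so these neighbours were not separated. Stag2 lay at 106 and 131 per kb. Pds5b (81.8 and 80.3), Stag1 (71.1 and 76.2), Espl1 (69.7 and 51.6) and Nipbl (56.3 and 73.8) followed within a narrow band, in which Stag1 was above Espl1 in 34 of 63 libraries of Cycle 1 and above Nipbl in 16 of 32 of Cycle 2. The length was the union of a gene's exons, 10266 bases for Stag1 and 9397 for Pds5b. Their longest coding transcripts had 6186 and 7417 bases, while both lengths were the same for Espl1 (6630) and Nipbl (8815). The band and the order of neighbours thus depend on the length used. Values under 100 normalised reads were found only for Esco2 and Espl1.

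**Figure D1:**
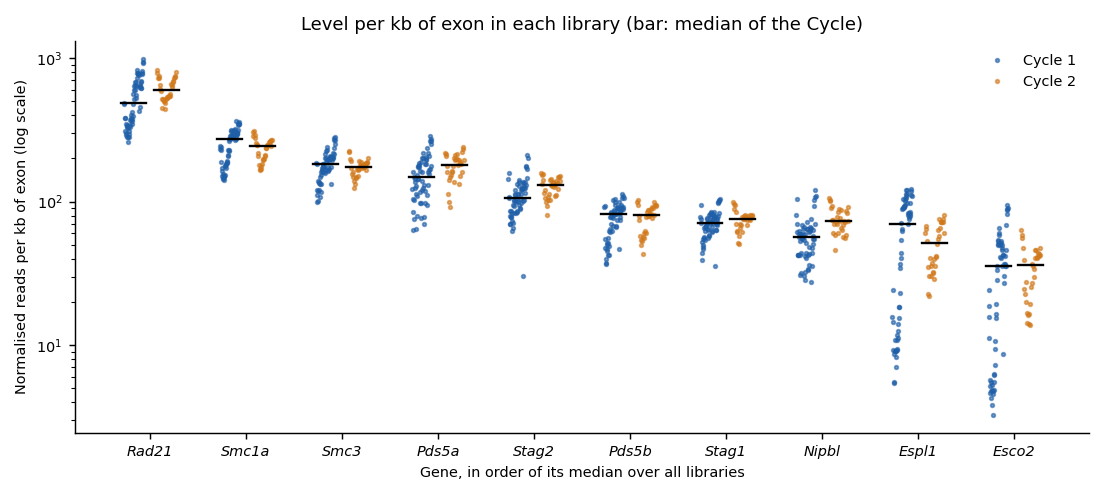
Level of each gene per kb of exon (normalised reads per kb, log scale) in each library of Cycle 1 (blue) and Cycle 2 (orange), with a bar at the median of the Cycle; points run from early to late hours within each strip. Rad21 is the highest and Esco2 the lowest by median, and Espl1 and Esco2 span the widest ranges.

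All 10 genes were lower than in the starved cells of the same Cycle in each of the first 4 windows after serum, from 1 to 3 h through 11 to 14 h, on the mean of both Cycles. Of all genes, 68.1%, 63.1%, 59.5% and 57.2% were lower in these windows, so a lower value was common. The members went further down: their median log2 change was -0.62, -0.78, -0.68 and -0.40, against -0.26, -0.26, -0.17 and -0.13 for all genes. With the length trend taken out it was -0.49, -0.64, -0.51 and -0.21, with 9 of 10 genes lower at 11 to 14 h (57.2% of all genes). At 11 to 14 h it was -0.23 once values were corrected for GC content, and at 1 to 3 h -0.39 with TMM rescaling. From 15 h the members parted. Espl1 ended above its starved level in the mean of both Cycles, Nipbl stayed below, and the median of the 10 was -0.10, -0.17 and -0.00 at 15 to 18, 19 to 23 and 24 to 27 h. The direction of this later median depended on the processing: with the length trend taken out it was 0.06, 0.06 and 0.10, and at 24 to 27 h 0.09 with the GC trend taken out and 0.10 with TMM rescaling. In these bulk values a smaller share of cells that make an RNA and less RNA per cell cannot be told apart.

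In the test of window means, which took each Cycle as 1 value per window (limma on log2(value + 1), adjusted over all genes), 3 of 10 genes fell at 1 to 3 h (Pds5b, Smc3 and Stag1, where 20.0% of all genes fell). At 4 to 6 h 5 fell (Pds5b, Smc1a, Smc3, Stag1 and Stag2, 26.3% of all genes), and at 7 to 10 h 4 (Pds5b, Smc1a, Stag1 and Stag2, 20.7%). In the 4 later windows none of the 10 passed the limma test, where 32.4%, 32.5%, 36.0% and 36.6% of all genes did in either direction. At an unadjusted p under 0.05 the counts were 1 (Stag1), 0, 0 and 0, against 44.8%, 44.7%, 47.2% and 47.5% of all genes, and edgeR on whole reads called 0 in each (share of all genes not given). With the Cycle as a term, which removes a constant difference between the courses, the counts were 6, 7, 6, 3, 1, 1 and 1 from the first window to the last, all of them falls, where 27.1%, 32.6%, 27.6%, 26.7%, 26.6%, 29.7% and 31.1% of all genes fell. Rescaling by TMM factors moved the median of all genes at 1 to 3 h from -0.26 to -0.05 and left 5 of the 12 calls of the unblocked test (share of all genes not given), Pds5b in all 3 windows and Stag1 and Stag2 at 4 to 6 h. With TMM rescaling 10 of 10 genes were still lower in the first 3 windows and 9 of 10 at 11 to 14 h. Of all genes 53.4%, 54.6%, 53.0% and 52.7% were then lower in these 4 windows. The test over single hours, which also asked for a log2 change above 1, called 3 of 10 genes (Pds5b, Esco2 and Espl1), each with a fall as its largest change (for Espl1 the direction depended on the processing), where 46.3% of all genes were called and 32.4% with a fall.

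**Figure D2:**
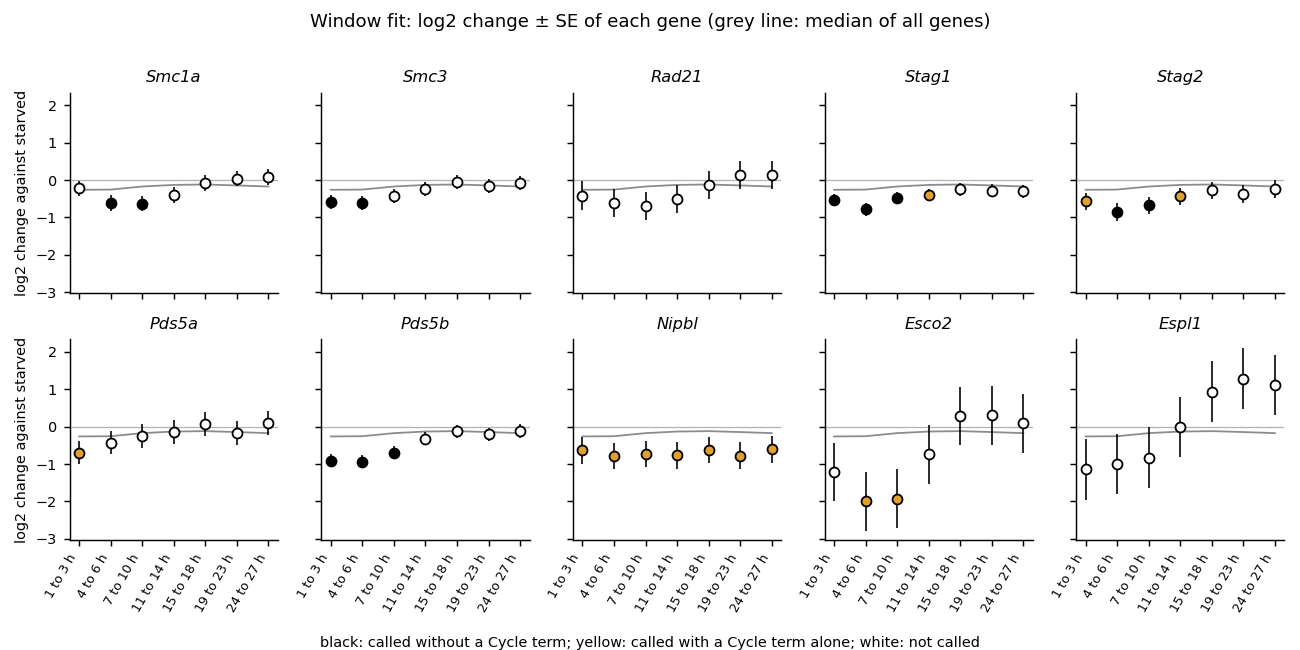
Log2 change of each member against starved cells in each window after serum, with bars of 1 standard error from the limma fit and a grey line at the median of all genes; black points passed an adjusted p of 0.05 without a Cycle term, yellow only with it, and white in neither. The calls without the Cycle term lie in the first 3 windows, and the widest bars are those of Esco2 (standard error 0.79) and Espl1 (0.81).

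Smc1a, Smc3 and Rad21 form the tripartite ring, and all 3 went down to between 0.562 and 0.601 of their starved level within the first 9 h in both Cycles (lowest mean of 3 successive libraries), at different times. Smc1a lies on chromosome X from 148450971 to 148497237 on the plus strand of mouse build NCBIM37. Its starved values were 1420.3 and 1347 in Cycle 1 and 1758 and 1648 in Cycle 2. At 4, 5 and 6 h they were 906, 829.6 and 867 in Cycle 1 and 1266, 1191 and 1035 in Cycle 2, and at 7 to 10 h 863 to 1061 and 956 to 1025. Every library of these 2 windows was below both starved libraries of its Cycle, a log2 change of -0.61 (standard error 0.21, adjusted p = 0.0402) and -0.63 (standard error 0.21, adjusted p = 0.0405). At 1 to 3 h Smc1a did not pass, with -0.23, and its trough came at 5 h in Cycle 1 (0.601 of starved) and 8 h in Cycle 2 (0.578). Both Smc1a calls were lost with TMM rescaling, with edgeR and with the trend over GC content or over transcript length taken out, and that at 7 to 10 h also with windows moved 1 h later; the log2 change stayed negative in each.

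Smc3, the partner of Smc1a in the ring and the subunit that is acetylated, lies on chromosome 19 from 53674886 to 53720323 on the plus strand. It passed already at 1 to 3 h, going from starved values of 1036 and 1018 in Cycle 1 and 1248 and 1226 in Cycle 2 to 664, 614, 553, 562 and 655 at 1, 1.5, 2, 2.5 and 3 h of Cycle 1 and 1061, 956, 862, 821 and 887 at the same hours of Cycle 2. No library of that window reached the starved ones, and the change was -0.60 (standard error 0.19, adjusted p = 0.0403). At 4 to 6 h it was -0.61 (standard error 0.19, adjusted p = 0.0275) and at 7 to 10 h -0.43. The 1 to 3 h call was lost with TMM rescaling, edgeR and the length trend taken out, and the 4 to 6 h call with TMM rescaling and edgeR.

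Rad21, the kleisin that separase cuts, lies on chromosome 15 from 51794151 to 51823306 on the minus strand. The Cycles began apart, with 1743 and 1741 in Cycle 1 and 2964 and 2837 in Cycle 2. The value at 7, 8, 9 and 10 h was 945, 1111, 1199 and 1236 in Cycle 1 and 1812, 1818, 1756 and 1601 in Cycle 2, below every starved library of its own Cycle, but Cycle 2 values at 7, 8 and 9 h were above the starved values of Cycle 1. The log2 change at 7 to 10 h was -0.69 (standard error 0.38, adjusted p = 0.183), -0.64 in Cycle 1 and -0.73 in Cycle 2, and it missed the threshold with the Cycle term too (adjusted p = 0.0525). With the Cycle term and the length trend taken out together Rad21 passed in that window (adjusted p = 0.0495). Its later values were 1917 to 2995 at 19 to 23 h of Cycle 1 and 2264 to 2497 of Cycle 2, a log2 difference from 7 to 10 h of 0.82 (standard error 0.38, adjusted p = 0.237), which did not pass.

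The 3 ring genes did not keep a fixed proportion. The mean log2 ratio of Smc1a to Smc3 (of normalised reads, not per length) was 0.43 in starved Cycle 1 and 0.46 in starved Cycle 2, and 0.90 and 0.73 at 1 to 3 h, when Smc3 was already low. It was 0.28 and 0.21 at 7 to 10 h and 0.72 and 0.58 at 19 to 23 h. In the first window and at 19 to 23 h every library was above both starved libraries of its Cycle, and at 7 to 10 h every library of Cycle 2 and 3 of 4 of Cycle 1 were below them. The Rad21 to Smc3 ratio went from 0.44 and 1.03 at 7 to 10 h to 1.29 and 1.29 at 19 to 23 h, with no overlap between the libraries of these windows in either Cycle. These ratios were not tested.

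**Figure D3:**
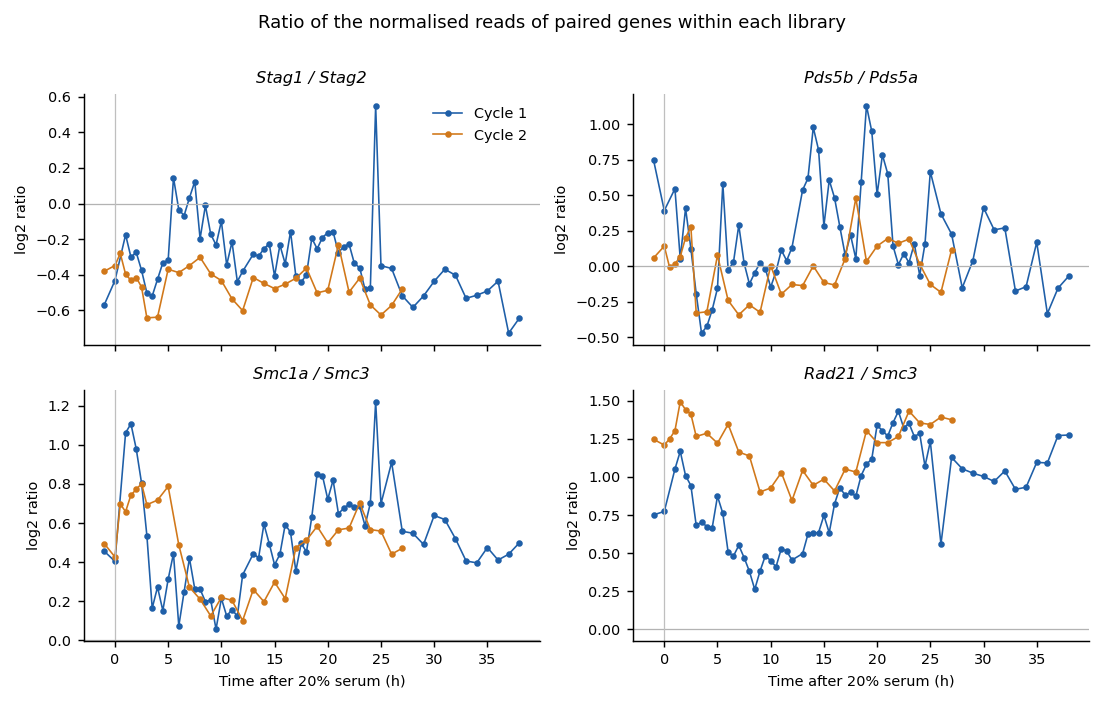
Log2 ratio of the normalised reads of 4 pairs of genes in every library of Cycle 1 (blue) and Cycle 2 (orange) against the time after serum in h; the spikes of Stag1 to Stag2 and Smc1a to Smc3 in Cycle 1 are the 24.5 h library. The Smc1a to Smc3 ratio is high at 1 to 3 h, low at 7 to 10 h and high again at 19 to 23 h in both Cycles (window means 0.90 and 0.73, 0.28 and 0.21, and 0.72 and 0.58), while window means of Stag1 to Stag2 stay between -0.56 and -0.11.

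Stag1 and Stag2 encode alternative subunits that bind Rad21 and recruit regulators. Stag1 lies on chromosome 9 from 100498217 to 100858964 on the plus strand and Stag2 on chromosome X from 39502494 to 39630362 on the plus strand, and the Stag2 value is an average over 2 transcripts. Stag1 went from 809 and 972 in Cycle 1 and 1014 and 989.7 in Cycle 2 when starved to 479.9, 515 and 671 at 4, 5 and 6 h of Cycle 1 and 528, 517 and 592 of Cycle 2, all below the starved libraries. Its change was -0.53 (standard error 0.17, adjusted p = 0.0386) at 1 to 3 h, -0.78 (standard error 0.17, adjusted p = 0.00498) at 4 to 6 h and -0.48 (standard error 0.17, adjusted p = 0.0496) at 7 to 10 h.

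Stag2 started at 1199 and 1312 in Cycle 1 and 1319.7 and 1259.6 in Cycle 2 and read 645, 643 and 688 at 4, 5 and 6 h of Cycle 1 and 822, 668 and 775 of Cycle 2, again with no overlap. Its log2 change was -0.85 (standard error 0.23, adjusted p = 0.0154) at 4 to 6 h and -0.67 (standard error 0.23, adjusted p = 0.0469) at 7 to 10 h, and with the Cycle term it also passed at 1 to 3 h (-0.57, adjusted p = 0.0198). At 11 to 14 h Stag1 (-0.40) and Stag2 (-0.44) passed only with the Cycle term (adjusted p = 0.0437 and 0.0476), and no longer when the trend over GC content or over length was taken out as well. The 4 to 6 h calls of both genes held under every alternative with a test. At 7 to 10 h both were lost with TMM rescaling, edgeR, windows moved 1 h later, or without the 0 h library of Cycle 1 or the -1 h library of Cycle 2, and Stag1 also with a pseudocount of 0.5 or the length trend taken out. The 1 to 3 h call of Stag1 was lost with TMM rescaling, edgeR and without the 0 h library of Cycle 1. The mean log2 ratio of Stag1 to Stag2 was -0.50 and -0.36 in starved cells and lay between -0.56 and -0.11 in all windows of both Cycles.

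Pds5b, a HEAT-repeat protein that binds the ring and regulates its release, had the clearest early fall of the 10 genes. It lies on chromosome 5 from 151476314 to 151613265 on the plus strand. The starved values were 859.7 and 879 in Cycle 1 and 942 and 962 in Cycle 2. At 1, 1.5, 2, 2.5 and 3 h it read 512, 449, 353, 345 and 372 in Cycle 1 and 749.7, 700.1, 542, 505 and 469 in Cycle 2, and at 4, 5 and 6 h 423, 469 and 527 and 498, 403 and 537. All 16 libraries were below all 4 starved ones, and the lowest mean of 3 libraries came at 2.5 h in Cycle 1 (0.411 of starved) and 4 h in Cycle 2 (0.480). The log2 change was -0.91 (standard error 0.18, adjusted p = 0.00459) at 1 to 3 h, -0.94 (standard error 0.18, adjusted p = 0.00259) at 4 to 6 h and -0.70 (standard error 0.18, adjusted p = 0.0135) at 7 to 10 h, and these 3 calls held under every alternative with a test. It was the only one of the 10 to pass the F test over the 7 windows (adjusted p = 0.00542, where 52.0% of all genes passed); with the Cycle term 6 of 10 passed it, against 68.5% of all genes. In the test over hours its largest change was -1.12 at 2.5 h (adjusted p = 1.32e-06 from limma), -1.33 in Cycle 1 and -0.91 in Cycle 2. With TMM rescaling this change was -0.89 and with edgeR -0.89, both at 5 h, and with the length trend taken out it was -0.98 at 3 h, with or without the Cycle term. In each of these it was short of a log2 change of 1 in size and Pds5b was not called over hours. At 19 to 23 h the change had come back to -0.21.

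Pds5a, its paralog, lies on chromosome 5 from 66006499 to 66089095 on the minus strand. Its values were 266 to 432 at 1 to 3 h of Cycle 1 against starved values of 513 and 669, and 416 to 741 against 903 and 872 in Cycle 2. All 10 libraries were below those of their own Cycle, but the Cycles' starved levels differed by 1.50 times, and the change of -0.69 (standard error 0.32, adjusted p = 0.137) passed only with the Cycle term (adjusted p = 0.0274). The mean log2 ratio of Pds5b to Pds5a was 0.57 in starved Cycle 1 and 0.10 in starved Cycle 2, and -0.20 and -0.16 at 4 to 6 h.

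Nipbl encodes the large HEAT-repeat subunit of the cohesin loader. On the deposited values it was the only member below its starved level by more than 0.5 (log2) in all 7 windows. It lies on chromosome 15 from 8241225 to 8394463 on the minus strand, and its value is an average over 2 transcripts. Starved libraries read 709 and 921 in Cycle 1 and 930.1 and 897 in Cycle 2. At 19, 20, 21, 22 and 23 h the values were 293, 379.7, 429, 589 and 554 in Cycle 1 and 604, 651, 495, 635 and 519 in Cycle 2, every one below all 4 starved libraries. The log2 change was -0.64, -0.78, -0.73, -0.76, -0.62, -0.78 and -0.61 from the first window to the last (standard error 0.36). None passed without the Cycle term (adjusted p from 0.109 to 0.225), and all 7 passed with it (adjusted p from 0.0151 to 0.0463). Nipbl did not pass the limma F test over the 7 windows (adjusted p = 0.516, and 0.0928 with the term). Nor did it pass the limma F test over hours (adjusted p = 0.815, and 0.119 with the term). The change was short of 0.5 in size at 1 to 3 h with TMM rescaling (-0.41) and edgeR (-0.38). With the GC trend taken out it was -0.49 at 24 to 27 h. In Cycle 1 Nipbl and Pds5a dipped together in the same libraries, with Nipbl at 269.6 at 5.5 h, 249 at 14 h and 293 at 19 h and Pds5a at 266, 322 and 292. The trend with transcript length in these libraries was -0.21, -0.26 and -0.28 per doubling, against a mean of 0.163 in starved Cycle 1. With that trend taken out the Nipbl change at 19 to 23 h was -0.40 in place of -0.78, and with the Cycle term as well the calls at 15 to 18 h and 24 to 27 h were lost (adjusted p = 0.0746 and 0.0884).

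Esco2 acetylates Smc3 during S phase, and its RNA had the deepest trough of the 10 genes. It lies on chromosome 14 from 66437875 to 66452831 on the minus strand. Starved values were 75.2 and 96.6 in Cycle 1 and 256 and 233 in Cycle 2. At 7, 8, 9 and 10 h they were 19.2, 24.6, 19.5 and 29.1 in Cycle 1 and 64.8, 65.9, 56.7 and 55.4 in Cycle 2, below all starved libraries of both Cycles. The lowest library, 13.1 at 6.5 h of Cycle 1, stood for 14 reads, with an exact 95% Poisson interval of 7.18 to 22.0 for counting error only, still below the starved values.

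The lowest mean of 3 libraries was 0.185 of starved at 6.5 h in Cycle 1 and 0.243 at 9 h in Cycle 2. The log2 change of Esco2 at 4 to 6 h was -1.99 (standard error 0.79, adjusted p = 0.0681) and at 7 to 10 h -1.93 (standard error 0.79, adjusted p = 0.083). These passed only with the Cycle term (adjusted p = 0.0198 and 0.0253). In the test over hours Esco2 was called (adjusted p = 0.00624 from the limma F test over all 29 shared hours), and its largest change was -2.23 at 6 h. At 10 of the 29 shared hours it was below 0.5 of starved in both Cycles. From 19 to 23 h the values were 166, 206, 214, 199.7 and 143 in Cycle 1 and 185, 186, 165, 161 and 176 in Cycle 2, so that the ratio of Cycle 2 to Cycle 1, 2.85 in starved cells, was 0.939. Against 7 to 10 h this was a log2 difference of 2.23 (standard error 0.79, adjusted p = 0.137), 2.96 in Cycle 1 and 1.51 in Cycle 2, with all 5 libraries of each above all of those at 7 to 10 h. It passed only with the Cycle term (adjusted p = 0.039, where 4.93% of all genes rose). Esco2 relative to Esco1, the other Smc3 acetyltransferase, had a mean log2 ratio of -0.73 and 0.77 in the starved Cycles, -3.10 and -1.12 at 4 to 6 h and 1.38 and 0.83 at 19 to 23 h.

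Espl1 encodes separase, the protease that cuts Rad21 at anaphase, and it had the highest level relative to starved cells of the 10 in Cycle 1. It lies on chromosome 15 from 102126724 to 102154787 on the plus strand. Starved values were 104 and 159.6 in Cycle 1 and 402 and 449.9 in Cycle 2. At 1, 1.5, 2, 2.5 and 3 h it read 95.7, 61.6, 36.1, 37.0 and 57.6 in Cycle 1 and 350.2, 234, 149, 145 and 202 in Cycle 2, each below the starved libraries of its Cycle. The trough came at 2.5 h in both Cycles, at 0.331 and 0.389 of starved. In the test over hours Espl1 was called (adjusted p = 0.00328 from the limma F test over all shared hours), and its largest change was -1.66 at 2.5 h (standard error 0.74). Which hour had the largest change depended on the processing. It was a rise of 1.44 at 22 h with TMM rescaling, of 1.63 at 21 h with the length trend taken out, and of 1.60 or 1.66 at 22 h without the -1 h or the 0 h library of Cycle 2, and Espl1 stayed called in each.

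Later in the course the Cycles parted for Espl1. At 15, 16, 17 and 18 h the values were 469, 428, 603 and 692 in Cycle 1 and 334, 367, 422 and 382 in Cycle 2, and at 19, 20, 21, 22 and 23 h 611, 675, 691, 745 and 721 and 502, 437, 479.9, 477 and 477. In Cycle 1 all were above the starved libraries, with the highest mean of 3 libraries at 22 h (5.69 times starved), whereas in Cycle 2 it came at 25 h and was 1.19 times starved. The log2 change at 19 to 23 h was 1.28 (standard error 0.81, adjusted p = 0.233), 2.41 in Cycle 1 and 0.16 in Cycle 2, and against 7 to 10 h it was 2.11 (standard error 0.81, adjusted p = 0.167). Neither passed, nor with the Cycle term (adjusted p = 0.143 and 0.0719). Of the 10 genes none passed the limma test of 19 to 23 h against 7 to 10 h, where 3.94% of all genes did. At an unadjusted p under 0.05 there were 4 (Esco2, Espl1, Pds5b and Smc1a), against 22.0% of all genes, and edgeR called 0 (share of all genes not given). Relative to securin (Pttg1), the mean log2 ratio of Espl1 was -1.72 and -0.75 at 1 to 3 h and 1.35 and 0.68 at 15 to 18 h, its lowest and highest window means in each Cycle.

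**Figure D4:**
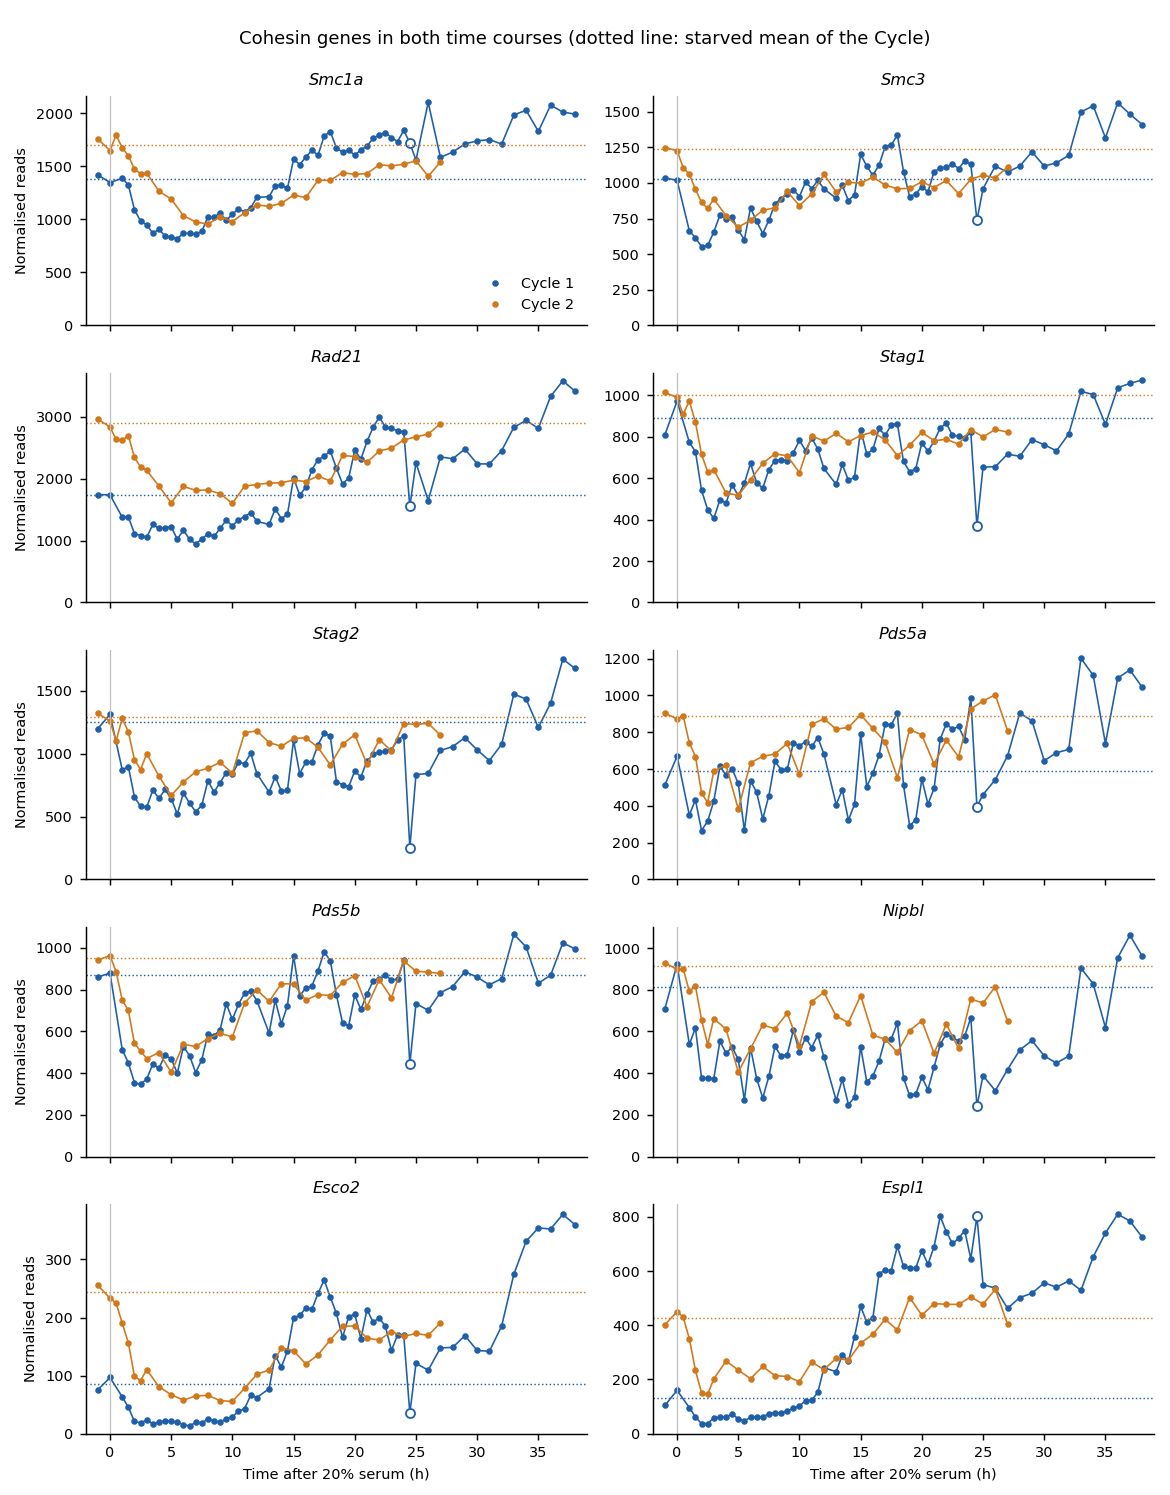
Normalised reads of each gene in every library of Cycle 1 (blue) and Cycle 2 (orange) against the time after serum in h, with dotted lines at the starved mean of each Cycle; the open symbol is the 24.5 h library of Cycle 1. Every gene goes below its starved line after serum in both Cycles. Esco2 and Espl1 start lower in Cycle 1 and rise above the starved line there. In Cycle 2 Esco2 stays below it after serum (highest fold 0.922) and Espl1 reaches at most 1.25 times starved.

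The promoters of 4 called genes are printed: Espl1 and Pds5b, called in the test over hours, and Smc1a and Stag1, with falls at both 4 to 6 h and 7 to 10 h. Each pair shares letters searched for, CCAAT with TTTGAA in the first and TTTCCCGC in the second. These pairs do not stand for all called genes. Pds5b fell in both of these windows too and holds no TTTCCCGC. Smc3, called at 1 to 3 h and 4 to 6 h, holds none of the letters. RefSeq promoters (build GRCm38.p6, 300 bases from 250 before to 50 after the start) were matched by symbol for 6 of the 10 genes; Rad21, Stag2, Nipbl and Esco2 are named only. CCAAT is the NF-Y core, TTTGAA and TTCGAA are core letters of the CHR element of late cell cycle genes, and TTTCCCGC, TTTCGCGC, TTTGCCGC and TTTGGCGC are forms of the E2F site. All were searched on both strands, and the hits do not overlap. Capitals mark the hits, and CCAAT on the other strand reads ATTGG. The windows are chr15:102296043-102296342 on the plus strand for Espl1, chr5:150673577-150673876 on the plus strand for Pds5b, chrX:152016178-152016477 on the plus strand for Smc1a and chr9:100643198-100643497 on the plus strand for Stag1.
Espl1: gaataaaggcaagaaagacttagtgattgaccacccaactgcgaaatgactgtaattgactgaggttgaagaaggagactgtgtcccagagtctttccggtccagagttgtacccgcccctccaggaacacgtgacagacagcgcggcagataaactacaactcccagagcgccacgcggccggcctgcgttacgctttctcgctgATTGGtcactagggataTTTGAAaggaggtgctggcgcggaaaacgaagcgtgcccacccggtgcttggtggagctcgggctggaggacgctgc
Pds5b: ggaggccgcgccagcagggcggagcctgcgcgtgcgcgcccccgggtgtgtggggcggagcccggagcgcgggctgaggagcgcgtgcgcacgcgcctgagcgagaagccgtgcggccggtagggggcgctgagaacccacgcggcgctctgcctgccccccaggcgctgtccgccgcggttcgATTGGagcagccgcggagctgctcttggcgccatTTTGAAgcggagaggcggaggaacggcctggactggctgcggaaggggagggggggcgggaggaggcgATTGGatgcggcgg
Smc1a: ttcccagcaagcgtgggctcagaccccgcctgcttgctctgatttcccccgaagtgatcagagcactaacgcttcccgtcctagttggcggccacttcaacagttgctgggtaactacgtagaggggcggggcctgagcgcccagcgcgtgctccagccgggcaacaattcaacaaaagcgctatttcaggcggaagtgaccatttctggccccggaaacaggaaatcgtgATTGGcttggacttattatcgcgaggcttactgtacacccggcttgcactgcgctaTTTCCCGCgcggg
Stag1: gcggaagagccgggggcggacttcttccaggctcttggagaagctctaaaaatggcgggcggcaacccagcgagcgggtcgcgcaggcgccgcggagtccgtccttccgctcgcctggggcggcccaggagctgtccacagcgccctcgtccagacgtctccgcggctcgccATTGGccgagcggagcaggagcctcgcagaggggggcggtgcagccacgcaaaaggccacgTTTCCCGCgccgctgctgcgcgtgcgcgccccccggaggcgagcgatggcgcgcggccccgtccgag

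Counted from the start site, the Espl1 window holds CCAAT at -44 and TTTGAA at -27, and the Pds5b window CCAAT at -66 and 37 and TTTGAA at -32. The Smc1a window holds CCAAT at -19 and TTTCCCGC at 38, and the Stag1 window CCAAT at -78 and TTTCCCGC at -17. Pds5a has TTTGGCGC at -106 and Smc3 none of the letters. Of 32851 promoters of the same length 37.4% held CCAAT, 17.9% TTTGAA, 1.56% TTCGAA and 2.26% any of the 4 E2F runs. All CCAAT hits lie on the strand opposite to the gene, and all hits are matches of letters only.

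The members' levels differed between the starved cells of the Cycles, before serum was added. All 10 genes were higher in the 2 starved libraries of Cycle 2 than in their mean of Cycle 1, with Cycle 2 to Cycle 1 ratios of 3.23 for Espl1, 2.85 for Esco2, 1.67 for Rad21 and 1.50 for Pds5a, and they ran from 1.03 for Stag2 to 1.23 for Smc1a in the other 6. Single libraries overlapped for Stag2 and Nipbl: the 0 h values of Cycle 1 (1312 and 921) were above those of Cycle 2 (1260 and 897). Among 9112 genes with a mean value of at least 100 the median ratio was 1.02, 52.3% of genes were above 1, and the 5th and 95th percentiles were 0.595 and 2.03, so Espl1 and Esco2 lay beyond the upper one. With 1 course of each kind the difference was not tested. At 19 to 23 h the ratio was 0.689 for Espl1, 0.934 for Rad21 and 0.861 for Smc1a, on the other side of 1. Since changes are taken against the starved cells of the same Cycle, this start level is part of every later fold of these genes.

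**Figure D5:**
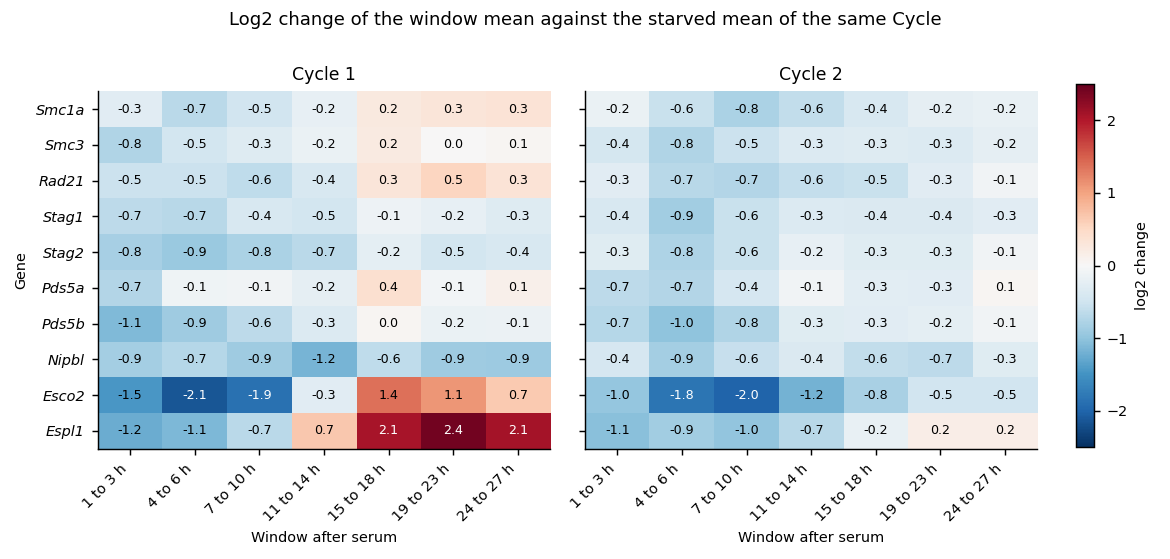
Mean log2 change of each gene (rows) against the starved libraries of the same Cycle in each window (columns), Cycle 1 and Cycle 2 side by side, with the value in each cell; blue stands for lower and red for higher. All 10 rows are below 0 in the first 3 windows of both Cycles, and Espl1 and Esco2 turn positive late in Cycle 1, with 2.06 and 1.37 at 15 to 18 h, where Cycle 2 has -0.18 and -0.81.

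By the 2-fold rule, any library after serum above 2 or below 0.5 of the starved mean of its Cycle, 8 of 10 genes passed, all but Smc1a and Smc3, where 85.0% of all genes did. Falls were seen in 7 of 10 (67.8% of all genes) and rises in 4 of 10 (41.6%). The rises were those of Esco2 in 21 and Espl1 in 37 libraries of Cycle 1 and of Rad21 and Pds5a in 1 library each. Asked for at the same hour in both Cycles, the rule left 3 of 10, Esco2 at 10 hours, Espl1 at 4 and Pds5b at 1, all falls, where 52.7% of all genes were left. With Cycle 2 alone 5 of 10 passed, where 59.5% of all genes did.

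After 27 h only Cycle 1 was sampled, in 11 libraries from 28 to 38 h with no replicate. All 11 were above the starved mean of Cycle 1 for Smc1a, Smc3, Rad21, Pds5a, Esco2 and Espl1, with median folds of 1.32, 1.28, 1.62, 1.53, 3.20 and 4.28. The share of all genes with all 11 above is not given, so how common this was is not known. Esco2 ran from 142 at 31 h to 378 at 37 h with a median of 275, above its earlier high of 265 at 17.5 h. Rad21 ran from 2238 to 3582 with its highest value also at 37 h. Stag1, Stag2, Pds5b and Nipbl had median folds of 0.966, 0.963, 0.999 and 0.759, with 5 of 11 libraries above the starved mean in each. For Stag1, Stag2 and Nipbl these were the libraries of 33, 34, 36, 37 and 38 h, with the highest fold 1.21 for Stag1 and 1.40 for Stag2, and Nipbl at its highest at 37 h with 1062 normalised reads, above its starved 709 and 921. The trend with transcript length was 0.130 to 0.171 in those 5 libraries and -0.081 to 0.014 in the other 6, and its part in these folds was not tested.

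Of 22 other genes of sister chromatid cohesion 19 were measured, and 4 fell at 1 to 3 h, 4 at 4 to 6 h and 1 at 19 to 23 h, where 20.0%, 26.3% and 22.3% of all genes fell. The shares at 1 to 3 h and 4 to 6 h were near those of all genes, and the share at 19 to 23 h was lower. At 19 to 23 h 1 rose (13.7% of all genes). None passed at 7 to 10, 11 to 14, 15 to 18 and 24 to 27 h, where 33.1%, 32.4%, 32.5% and 36.6% of all genes did in either direction. At 1 to 3 h the falls were Mau2, the partner of Nipbl, with -0.63 (adjusted p = 0.0184), Chtf8 of the PCNA loader with -0.75 (adjusted p = 0.00228), the helicase Ddx11 with -1.38 (adjusted p = 0.0375) and Ctcf, which positions cohesin on chromatin, with -1.02 (adjusted p = 0.00536). At 4 to 6 h they were the Smc3 deacetylase Hdac8 with -1.03 (adjusted p = 0.00691), Dscc1 with -2.01 (adjusted p = 0.0319), Ctcf with -0.69 (adjusted p = 0.0231) and the fork protein Timeless with -1.37 (adjusted p = 0.0352), all p values from limma. At 19 to 23 h Esco1 was at -0.78 (adjusted p = 0.043) and Chtf18, a further subunit of that loader, at 1.83 (adjusted p = 0.0498). With the Cycle term Timeless also fell at 1 to 3 h (adjusted p = 0.0448) and Chtf18 also rose at 15 to 18 h (adjusted p = 0.0404) and 24 to 27 h (adjusted p = 0.0456). Stag3, a meiotic subunit with a mean of only 8.17 normalised reads, then fell at 4 to 6, 15 to 18 and 24 to 27 h (adjusted p = 0.0435, 0.0452 and 0.0304). The counts with that term were 5 falls at 1 to 3 h, 5 at 4 to 6 h and 1 in each of the last 3 windows, which also had 1 rise each, where 17.3%, 18.1% and 17.3% of all genes rose. The list's median log2 change was -0.75, -0.69 and -0.39 in the first 3 windows, against -0.26, -0.26 and -0.17 for all genes.

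Lists of replication and mitosis genes give the timing of the courses. The 12 replication genes had a median log2 change of 2.28 in Cycle 1 and 0.54 in Cycle 2 at 15 to 18 h. In that window 7 of 12 rose in the limma test (12.7% of all genes) and 9 with the Cycle term (17.3% of all genes). The 12 mitosis genes had medians of -1.06 and -0.95 at 7 to 10 h and 2.21 and -0.06 at 19 to 23 h. None of them passed in any window against starved, with or without the Cycle term. Of all genes 26.6% to 38.9% passed in a window in either direction, and 36.3% to 48.8% with the term. In the same windows Esco2 was at 1.37 in Cycle 1 and -0.81 in Cycle 2 at 15 to 18 h, and Espl1 at 2.41 in Cycle 1 and 0.16 in Cycle 2 at 19 to 23 h. These late changes were higher in Cycle 1 for both lists and both genes.

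The genes whose course was most like that of each member were found by the lower of the Pearson r in Cycle 1 (63 libraries) and Cycle 2 (32 libraries) among 9112 genes. These r describe libraries that share a course and its scaling, and are given in that order. Esco2 was most like Top2a (0.957 and 0.953), which encodes the topoisomerase that untangles chromatids, Dek (0.953 and 0.959) and Kif15 (0.966 and 0.950). Espl1 was most like Spdl1 (0.989 and 0.965) and Tpx2 (0.992 and 0.946), both of the mitotic spindle, and Lmnb1 (0.951 and 0.950), a lamin. Rad21 went with Hmmr (0.961 and 0.949), C330027C09Rik (0.967 and 0.948) and Bub1 (0.940 and 0.949), and Smc1a with Psip1 (0.944 and 0.929), Bub1 (0.966 and 0.918) and Oxct1 (0.962 and 0.912), so that the checkpoint kinase gene Bub1 stood in both lists. Smc3 was most like the DNA damage kinase genes Atm (0.945 and 0.944) and Atr (0.893 and 0.898) and another member, Pds5b (0.946 and 0.897). Pds5b was most like Smc6 (0.967 and 0.957), of the related SMC5/6 complex, Atm (0.968 and 0.949) and Rbl1 (0.939 and 0.957). Stag1 and Stag2 shared Pcm1, with r of 0.936 and 0.947 for Stag1 and 0.923 and 0.928 for Stag2. For Pds5a the first was Caprin1 (0.955 and 0.936) and for Nipbl Nbeal1 (0.938 and 0.941).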

How the data were processed

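Poly(A) RNA of starved and serum-stimulated fibroblasts was sequenced with a stranded kit and single-end reads. Per the labels and the study's methods, the authors demultiplexed with CASAVA, aligned with STAR to mm9 (NCBIM37), and counted exon reads on either strand with HOMER, so antisense reads are included. The deposited values are a normalised signal, each library scaled to 10000000. One read per library was worth a fixed step, and 94.2% to 96.2% of low values (up to 20 reads) were whole multiples of it within 0.1, which gave the depths. Values of Stag2 and Nipbl are averages over 2 transcripts. Of 96 columns 1 matches no sample name and was not used.

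Values were tested as log2(value + 1) with limma 3.58.1 in R 4.3.3, over all 15895 genes with Benjamini-Hochberg adjustment and no further filter on low values; fold changes on this scale understate those of low genes. Windows were means of the hours both Cycles had (starved, -1 and 0 h; 1 to 3, 4 to 6, 7 to 10, 11 to 14, 15 to 18, 19 to 23 and 24 to 27 h), with 1 value per Cycle. The test over hours was a moderated F test over the 29 shared hours after serum, so its p belongs to no single hour. It called genes past 1 in either direction on the log2 scale at some hour, at an adjusted p below 0.05. The study itself compared folds with the starved mean and ran no such test. A Cycle is 1 course by the labels, which pairs its libraries; over 406 pairs of hours the deviations of one Cycle's libraries from the means of both correlated with a median r of 0.475 (lowest -0.181, 368 over 0.1). edgeR 4.0.16 on whole reads was an alternative, with pseudocounts of 0.5 and 10, a minimum mean of 10, TMM rescaling, the Cycle term, GC content (known for 93.3% of genes), single starved libraries or a Cycle left out, and moved windows; the length trend, the Cycle term combined with GC or length, and leaving out libraries that stand apart were added after seeing the data. The steps were run on simulated data in which the Cycles differed by a constant amount for each gene. That run cannot show how the tests behave where the Cycles respond differently, as for some members here. Window p values measure the spread between the window means of the Cycles, and p values over hours that between their libraries. Without the Cycle term both tests took the values of a Cycle as independent, although their deviations correlated. Intervals cover counting error only. Tables and figures were made with matplotlib 3.10.9, pandas 2.3.3, scipy 1.17.1 and numpy 2.4.6 in Python 3.11.15.

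The members and gene lists were chosen with earlier results of these data known. Named are the 10 members, other cohesion genes called in a window and, for each member, the 3 genes most like it among those with a mean of at least 100. Coordinates are of NCBIM37, and promoters of GRCm38.p6 were used for their letters only.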

Additional observations from a re-analysis of the deposited data

Results flagged for a closer look

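In the starved libraries Nipbl had 1 value far from the others: 709 at -1 h of Cycle 1 against 897 to 930 in the other 3 (921 at 0 h of Cycle 1), a gap of 0.852 of the range of the 4. Chance flags about 1 group in 20. Without that library the 7 Nipbl changes kept their direction.

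For 5 members every library of Cycle 1 in a window was above its starved mean and every library of Cycle 2 below its own, and these differences were not tested. At 15 to 18 h the difference between the Cycles on the log2 scale was 0.65 for Smc1a (0.25 in Cycle 1 and -0.40 in Cycle 2), 0.55 for Smc3 (0.23 and -0.31), 0.85 for Rad21 (0.30 and -0.55), 2.18 for Esco2 (1.37 and -0.81) and 2.24 for Espl1 (2.06 and -0.18). At 19 to 23 h it was 0.51 for Smc1a (0.30 and -0.22), 0.82 for Rad21 (0.54 and -0.28) and 1.58 for Esco2 (1.10 and -0.49). At 24 to 27 h it was 0.52 for Smc1a (0.35 and -0.18) and 1.14 for Esco2 (0.66 and -0.48). Of all genes 3.55%, 2.37% and 2.24% had the Cycles opposed in this direction in these windows, against 5, 3 and 2 of the 10 members. Each of the 5 genes started from a higher starved level in Cycle 2, and the part of that level in the result was not tested.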

How the results depend on the processing

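All 12 calls of members over the 7 windows kept their direction under every alternative, and none of the members' called values reversed. With TMM rescaling 5 of the 12 calls were left and with edgeR 5, the counts being 1 at 1 to 3 h, 3 at 4 to 6 h and 1 at 7 to 10 h under both, in place of 3, 5 and 4. With the length trend taken out 2 were left at 7 to 10 h, and with windows moved 1 h later 1. The shares of all genes called under these alternatives are not given here. The counts therefore do not show whether members lost more calls than other genes. With the Cycle as a term (replicate block) there were 25 calls, 6 at 1 to 3 h, 3 at 11 to 14 h and 1 in each of the 3 last windows; the block with the GC trend taken out gave 22, with 6, 1 and again 1 in each, and the block with the length trend 5 at 1 to 3 h, 1 at 11 to 14 h and 1 at 19 to 23 h. The block removed no call. For 19 to 23 h against 7 to 10 h, 627 genes passed, 1950 with the block and 326 with windows moved, and of the members 0, 1 with the block and 2 with the block and either trend. Leaving out each starved library in turn gave 2 to 4 members at 7 to 10 h, with 2 without the 0 h library of Cycle 1 or the -1 h library of Cycle 2. The 2-fold rule passed 13506 genes and 8 members, 8378 and 3 at the same hour and direction in both Cycles, and 5 to 8 members with a Cycle left out. The causes of these moves were not tested. The Cycles are the only replicates, with standard errors of 0.17 to 0.38 on the log2 scale in 8 genes and of 0.79 and 0.81 in Esco2 and Espl1, and this spread limits what the window test can show.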

Other observations

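The SMC complexes related to cohesin, condensin and SMC5/6, were measured with all 13 listed genes, and their median log2 change was -0.74 at 1 to 3 h, -1.08 at 4 to 6 h and -0.70 at 7 to 10 h, against -0.26, -0.26 and -0.17 for all genes. Few of the 13 passed the limma test over all genes, with 1, 2 and 1 falls in these windows, where 20.0%, 26.3% and 20.7% of all genes fell. With the Cycle as a term there were 2, 4 and 2 falls, where 27.1%, 32.6% and 27.6% of all genes fell. Smc6, the ATPase of the SMC5/6 complex, fell in all 3, with -1.05 (standard error 0.21, adjusted p = 0.00536), -1.12 (adjusted p = 0.00264) and -0.70 (adjusted p = 0.0292). Nsmce1, a ubiquitin ligase subunit of the same complex, fell at 4 to 6 h with -0.89 (adjusted p = 0.035). Ncaph2, the kleisin of condensin II, was the only one to rise, with 0.57 at 19 to 23 h (adjusted p = 0.0453) and 0.62 at 24 to 27 h (adjusted p = 0.0342), where 13.7% and 12.9% of all genes rose. The condensin ATPase genes Smc2 and Smc4 stood at -1.13 and -1.20 at 4 to 6 h and did not pass (adjusted p = 0.253 and 0.119 from limma), Smc4 only with the Cycle term (adjusted p = 0.0397).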
